A study of Homo sapiens with 8 samples.

Results

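Hypoxia-inducible factor 1 alpha (HIF1A) and 9 HIF target genes outside glycolysis, KDM3A, NDRG1, JMJD6, CA9, VEGFA, ADM, EGLN3, BNIP3 and ANKRD37, were followed in 2 bladder cancer (BLCA) cell lines treated with melatonin. The 10 genes were taken by symbol from the 60612 genes of the expression table. Of these, 8 had a mean level of at least 1 FPKM (fragments per transcript length and library size) and were among the 12649 genes tested, while CA9 and EGLN3 lay under that level. Melatonin, an indoleamine hormone, was given for 24 h at 1, 2 or 4 mM, with DMSO (0 mM) as the control, to 5637 cells grown in RPMI and to UM-UC3 cells grown in MEM, each with fetal bovine serum and neither with a genetic change made by the study. RNA was sequenced in 8 libraries, 1 for each dose and line, to ask what melatonin does to the transcriptome of BLCA cells. No dose had a replicate within a line, the sources do not say how many cultures stand behind a library, and the line and its medium cannot be told apart.

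HIF is a dimer of an oxygen-regulated alpha subunit, HIF1A or EPAS1 (HIF-2 alpha), and the constant beta subunit ARNT. In oxygen the EGLN prolyl hydroxylases mark the alpha subunit for capture by VHL and degradation, and HIF1AN blocks its transactivation domain, so that HIF activity is set mostly through the amount of alpha subunit protein, which RNA-seq does not measure. In low oxygen the dimer binds short core motifs in hypoxia response elements and switches on genes of glycolysis as well as of blood vessel growth, chromatin, pH control and mitophagy, and in solid tumours, bladder cancer among them, such targets are widely used as markers of hypoxia.

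The HIF core motif reads ACGTG or GCGTG. Promoter windows that carry it are shown for the alpha subunit itself and for KDM3A, a target that rose in both lines. They are also shown for BNIP3 and ANKRD37, whose windows hold the ACGTG form. The window of CA9 holds that form too and is not printed. Windows of 300 bases around a RefSeq start site were found for 7 of the 10 members in the RefSeq promoter table of GRCh38.p14. Capitals mark ACGTG or GCGTG on either strand, so that CACGT and CACGC are capitals too, and CACGTG is the ACGTG core read on both strands at once.
HIF1A, chr14:61695263-61695562, plus strand: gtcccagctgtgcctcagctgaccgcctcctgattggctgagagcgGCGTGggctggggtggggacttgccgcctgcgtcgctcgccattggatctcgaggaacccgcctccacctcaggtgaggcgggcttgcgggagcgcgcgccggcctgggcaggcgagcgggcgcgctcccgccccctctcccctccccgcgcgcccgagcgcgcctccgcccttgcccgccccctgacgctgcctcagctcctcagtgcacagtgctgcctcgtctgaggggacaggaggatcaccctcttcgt
KDM3A, chr2:86441121-86441420, plus strand: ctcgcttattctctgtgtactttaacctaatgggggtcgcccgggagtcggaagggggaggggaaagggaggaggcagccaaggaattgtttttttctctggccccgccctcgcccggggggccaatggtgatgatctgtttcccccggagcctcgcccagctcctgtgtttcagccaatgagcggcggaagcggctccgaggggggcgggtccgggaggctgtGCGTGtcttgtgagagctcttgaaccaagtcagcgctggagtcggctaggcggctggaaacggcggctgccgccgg
BNIP3, chr10:131981874-131982173, minus strand: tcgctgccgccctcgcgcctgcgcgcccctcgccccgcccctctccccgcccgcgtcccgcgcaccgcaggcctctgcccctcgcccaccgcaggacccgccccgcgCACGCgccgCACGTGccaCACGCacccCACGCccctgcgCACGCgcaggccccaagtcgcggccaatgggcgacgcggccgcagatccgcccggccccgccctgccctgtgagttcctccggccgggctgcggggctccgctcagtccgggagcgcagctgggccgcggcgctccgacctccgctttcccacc
ANKRD37, chr4:185396591-185396890, plus strand: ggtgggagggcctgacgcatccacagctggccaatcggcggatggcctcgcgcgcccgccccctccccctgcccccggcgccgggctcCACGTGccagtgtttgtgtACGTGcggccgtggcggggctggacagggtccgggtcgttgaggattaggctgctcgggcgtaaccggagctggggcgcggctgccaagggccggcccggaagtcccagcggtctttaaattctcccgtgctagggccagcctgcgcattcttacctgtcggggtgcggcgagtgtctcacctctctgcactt
The ACGTG core was in the windows of 3 of the 7 members, against 21.4% of all 35116 windows in the table, and GCGTG, present in 36.5% of all windows, was in those of HIF1A, KDM3A, ADM and BNIP3. The ANKRD37 window held ACGTG cores from -162 and -143 relative to the RefSeq start site of the window, the first of them palindromic, the BNIP3 window a palindrome from -134, and the CA9 window a single core from -18. That start site lay downstream of the gene start given in the expression table by 820 bases for ANKRD37, 90 for BNIP3, 10 for CA9, 724 for the KDM3A window shown and 511700 for EGLN3, and matched it for HIF1A and ADM. The EGLN3 window held neither form. These matches are descriptions of letters and not of binding.

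FPKM summed to 332961 to 395621 per library, with the highest sum in UM-UC3 cells at 4 mM, and 11494 to 12397 genes reached 1 FPKM. Mitochondrial transcripts took 10.7, 13.0, 14.1 and 14.4% of the sum at 0, 1, 2 and 4 mM in 5637 cells and 9.97, 8.8, 15.4 and 13.2% in UM-UC3 cells, with both higher doses above DMSO in each line. Urothelial markers (13 of 19 with a mean of at least 1 FPKM) summed to 3705, 3312, 2629 and 1006 FPKM in 5637 cells at 0, 1, 2 and 4 mM and to 214, 187, 141 and 105 FPKM in UM-UC3 cells, with 2 to 6 of the 19 at 0 in a library. In 5637 cells fibroblast markers (4 of 10 with a mean of at least 1 FPKM) summed to 9.03 to 11.6 FPKM, endothelial markers (1 of 8) to 0.056 to 0.307 FPKM and leukocyte markers (1 of 11) to 0.253 to 5.17 FPKM. In UM-UC3 cells these sums were lower at each dose than at the one before, at 17.1, 14.2, 6.25 and 2.66 FPKM for fibroblast, 7.34, 3.15, 1.68 and 1.38 FPKM for endothelial and 106, 63.9, 61.0 and 53.3 FPKM for leukocyte markers. The only endothelial marker with a mean of at least 1 FPKM was TIE1, and the only leukocyte marker CD68. Sums of so few expressed genes in cultured lines do not measure other cell types. Urothelial sums in both lines, other marker sums in UM-UC3 cells and the mitochondrial share in 5637 cells ran with dose beside every result. The mitochondrial share in UM-UC3 cells and the other marker sums in 5637 cells did not run evenly with dose. The part of these sums and shares in the results below was not tested. In bulk RNA, fewer cells of a type and less RNA per cell cannot be told apart.

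HIF1A fell with melatonin dose over both lines together while 5 of its 9 target genes outside glycolysis rose. In UM-UC3 cells alone HIF1A did not pass the test, and of the targets only KDM3A and JMJD6 did. Over both lines, 5 of the 8 tested members rose (KDM3A, NDRG1, JMJD6, VEGFA and BNIP3) and 1 fell (HIF1A), where 12.1% of all 12649 tested genes rose and 12.8% fell. Each fold change below is the fitted log2 difference between 4 mM and DMSO, on the log2(FPKM + 1) scale, from limma's straight line over dose, and a call is a Benjamini-Hochberg adjusted p under 0.05 over all tested genes. Where a slope had no 4 mM library behind it, the fold change still stands for 4 mM, past the highest dose fitted. With any dose against DMSO, it is the difference between treated libraries and DMSO. The median log2 fold change of the 8 members was 1.03, against -0.01 for all tested genes. NDRG1 stood highest, at place 42 from the top of 12649. KDM3A, NDRG1 and JMJD6 passed in all 8 fits that left out 1 library, whereas HIF1A and VEGFA passed in 2 and BNIP3 in 3 of them. Without both 4 mM libraries 0 of the 8 members passed in limma, with 2 at an unadjusted p under 0.05, where 2.77% of all tested genes passed in either direction. KDM3A came closest there, at 1.16 (adjusted p = 0.0548).

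**Figure D1:**
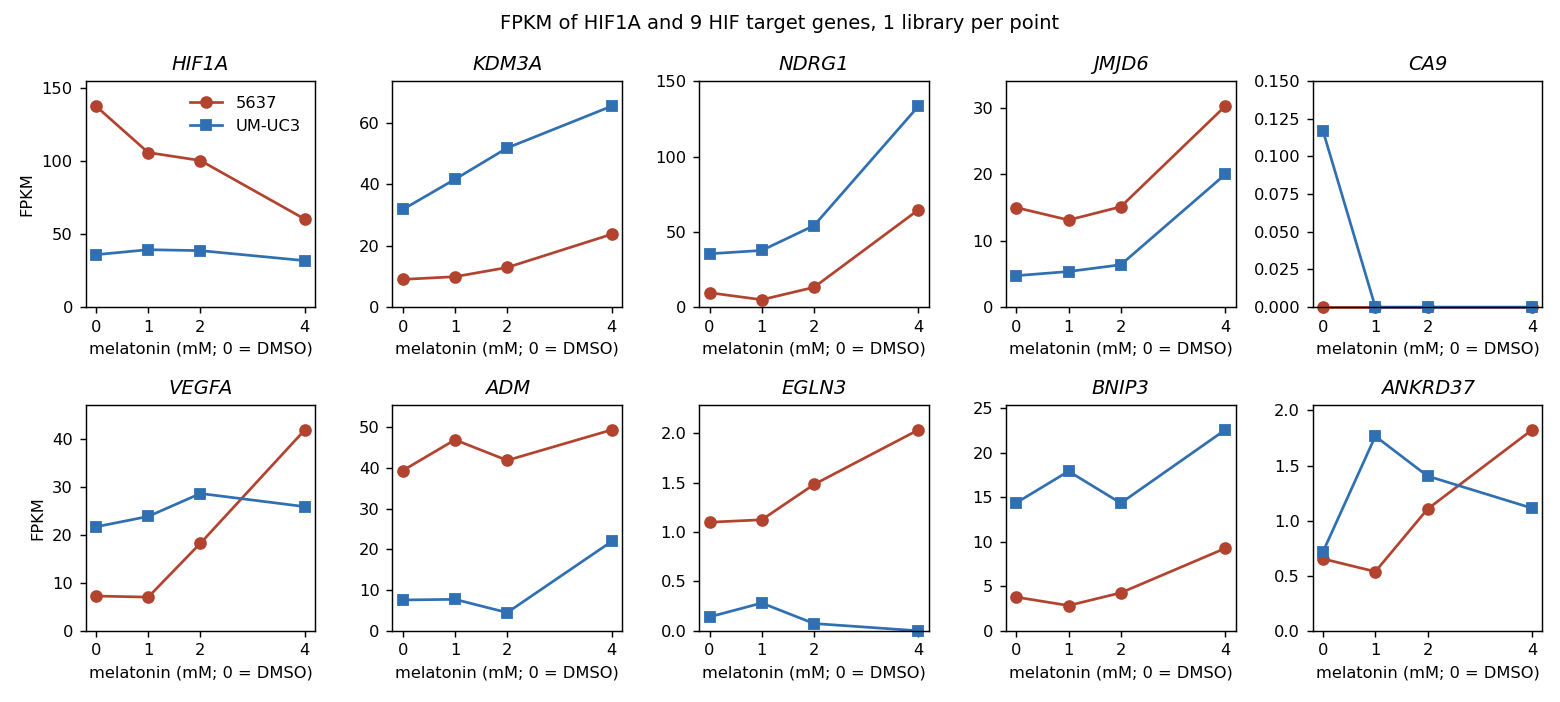
FPKM of each of the 10 genes (y axis, own scale from 0 in each panel) against melatonin dose in mM (x axis, 0 is DMSO), with 5637 cells as red circles and UM-UC3 cells as blue squares, 1 library per point. HIF1A runs downward in 5637 cells, KDM3A, NDRG1 and JMJD6 are highest at 4 mM in both lines, VEGFA climbs in 5637 cells and stays between 21.7 and 28.7 FPKM in UM-UC3 cells, and CA9 lies at or near 0.

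Both lines were then fitted with their own slopes. In 5637 cells 6 members rose (KDM3A, NDRG1, JMJD6, VEGFA, BNIP3 and ANKRD37) and 1 fell (HIF1A), where 23.0% of all tested genes rose and 20.4% fell. In UM-UC3 cells 2 rose (KDM3A and JMJD6), where 12.5% of all tested genes rose, and 0 fell in limma, none of them at an unadjusted p under 0.05 either, where 16.7% of all tested genes fell. The slopes of all 8 tested members had the same sign in both lines, passed or not, as did those of 59.9% of all tested genes. The median log2 fold change of the members was 1.16 in 5637 cells and 0.76 in UM-UC3 cells, against 0.05 and -0.04 for all tested genes. Without the 4 mM library of the line, 0 members passed in either line, with 3 of 8 in 5637 cells and 2 of 8 in UM-UC3 cells at an unadjusted p under 0.05. In those fits 6.11% of all tested genes passed in 5637 cells and 0.372% in UM-UC3 cells.

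**Figure D2:**
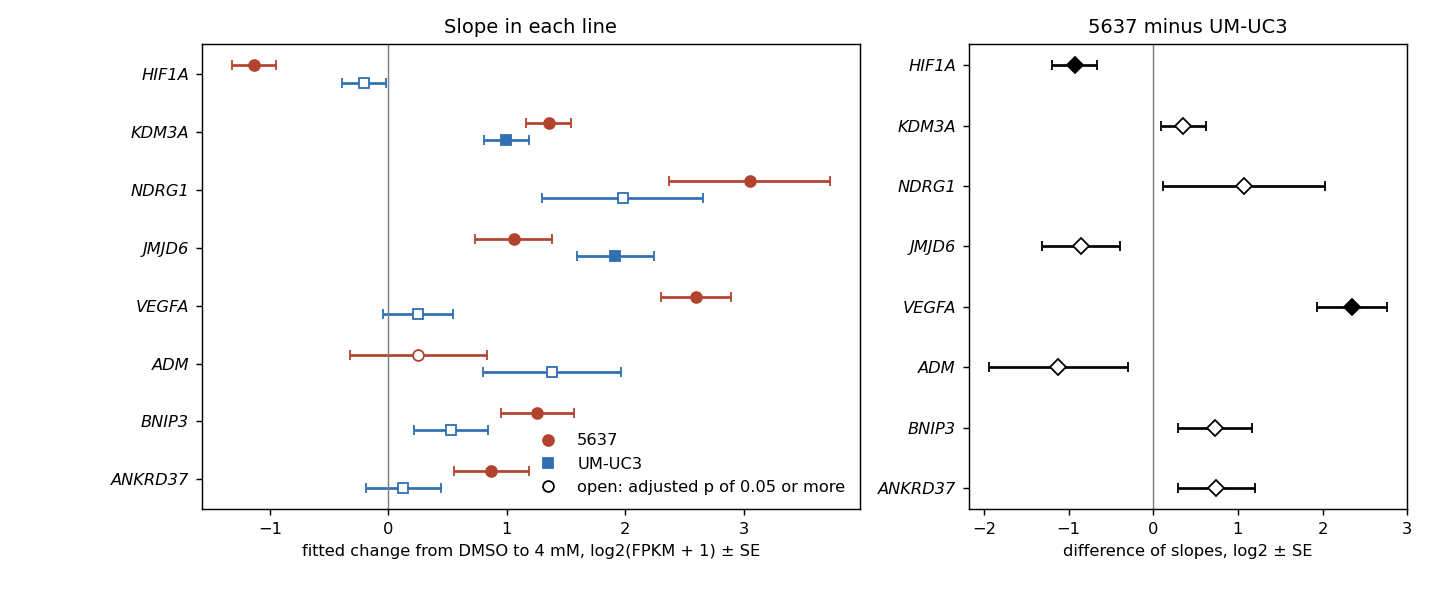
Left, fitted log2 change from DMSO to 4 mM with its standard error for the 8 tested genes in 5637 cells (red circles) and UM-UC3 cells (blue squares), and right, the slope in 5637 cells minus that in UM-UC3 cells (black diamonds), filled where the adjusted p is under 0.05. The slopes of HIF1A are the only ones left of 0 in the left panel, and in the right panel VEGFA at 2.35 and HIF1A at -0.93 are filled.

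HIF1A (chr14:61695513-61748259, GRCh38, plus strand) was the most abundant member, at place 647 of 60612 genes by mean FPKM. In 5637 cells it measured 137, 106, 100.2 and 60.1 FPKM at 0, 1, 2 and 4 mM, lower at each dose than at the one before. In UM-UC3 cells it measured 35.8, 39.2, 38.6 and 31.8 FPKM, so that only the 4 mM library lay under DMSO. HIF1A fell in 5637 cells (log2 fold change -1.14, SE 0.189, adjusted p = 0.00122), which left 0.438 times the DMSO level at 4 mM. The slope in UM-UC3 cells was -0.21 (SE 0.189, adjusted p = 0.453), and the slopes of the lines differed by -0.93 (SE 0.268, adjusted p = 0.0298). The call over both lines (-0.67, SE 0.215, adjusted p = 0.049) lay close to the threshold, and the adjusted p ran from 0.0209 to 0.260 with 1 library left out, failing without any 1 of the 5637 libraries and without the UM-UC3 library at 1 or 2 mM. At 4 mM the transcript was still at 60.1 FPKM in 5637 cells, above the 31.8 to 39.2 FPKM of UM-UC3 cells.

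KDM3A and JMJD6 encode Jumonji-domain dioxygenases, enzymes that themselves use oxygen, and both rose in both lines. KDM3A (chr2:86440647-86492716), which removes methyl groups from lysine 9 of histone H3, measured 9.01, 9.88, 12.9 and 23.7 FPKM at 0, 1, 2 and 4 mM in 5637 cells and 31.7, 41.6, 51.7 and 65.3 FPKM in UM-UC3 cells. It was the only member that was higher at each dose than at the one before in both lines. KDM3A rose by a log2 fold change of 1.35 (SE 0.190, adjusted p = 0.000525) in 5637 cells and 1.00 (SE 0.190, adjusted p = 0.00472) in UM-UC3 cells. JMJD6 (chr17:76712832-76726799), a lysyl hydroxylase of splicing factors, measured 15.0, 13.1, 15.1 and 30.2 FPKM in 5637 cells and 4.73, 5.35, 6.37 and 19.97 FPKM in UM-UC3 cells. Most of its difference on the log2 scale lay between 2 and 4 mM. JMJD6 rose by 1.06 (SE 0.327, adjusted p = 0.0249) in 5637 cells and 1.92 (SE 0.327, adjusted p = 0.00284) in UM-UC3 cells, and the difference of -0.86 between the lines did not pass (adjusted p = 0.191). In 5637 cells the adjusted p of JMJD6 reached 0.996 without the 4 mM library, where its fitted change was 0.02, and in UM-UC3 cells it was 0.73 (adjusted p = 0.569) without the 4 mM library of that line.

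NDRG1 and BNIP3, stress genes long used as markers of hypoxia, were highest at 4 mM in each line. NDRG1 (chromosome 8), a cytoplasmic protein tied to differentiation and stress, measured 9.53, 4.90, 13.2 and 64.7 FPKM at 0, 1, 2 and 4 mM in 5637 cells and 35.4, 37.7, 54.2 and 134 FPKM in UM-UC3 cells. The level at 4 mM was 6.78 times that in DMSO in 5637 cells and 3.77 times in UM-UC3 cells, although the 1 mM library of 5637 cells lay under DMSO. NDRG1 rose over both lines by 2.51 (SE 0.461, adjusted p = 0.00633) and in 5637 cells by 3.05 (SE 0.678, adjusted p = 0.011), while the slope of 1.98 in UM-UC3 cells missed the threshold (SE 0.678, adjusted p = 0.0692). With 1 library left out the 5637 slope of NDRG1 ran from 0.85, without the 4 mM library (adjusted p = 0.675), to 4.61, without DMSO. With log dose it missed the threshold (adjusted p = 0.0563). BNIP3 (chr10:131966455-131982013), a mitochondrial outer membrane receptor for mitophagy, measured 3.79, 2.84, 4.27 and 9.27 FPKM in 5637 cells and 14.4, 17.9, 14.4 and 22.6 FPKM in UM-UC3 cells. BNIP3 rose in 5637 cells by 1.26 (SE 0.311, adjusted p = 0.00909) and over both lines by 0.89 (SE 0.265, adjusted p = 0.0372), whereas the slope of 0.53 in UM-UC3 cells did not pass (adjusted p = 0.227). The 5637 slope of BNIP3 ran from 0.28, without the 4 mM library (adjusted p = 0.805), to 1.90 with 1 library left out. Without 1 library at a time the adjusted p of BNIP3 over both lines ran from 0.0413 to 0.200, and it failed without each of the 5637 libraries and without the UM-UC3 DMSO library.

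VEGFA and ADM encode secreted factors that act on blood vessels, and of these VEGFA passed in 5637 cells and over both lines. VEGFA (chr6:43770184-43786487), the main growth factor of the vessel wall, measured 7.26, 7.03, 18.3 and 42.0 FPKM at 0, 1, 2 and 4 mM in 5637 cells. In UM-UC3 cells it measured 21.7, 23.9, 28.7 and 25.9 FPKM. VEGFA at 4 mM was 5.78 times its DMSO level in 5637 cells and 1.19 times in UM-UC3 cells, and it changed place between the lines, being lower in 5637 cells in DMSO and higher there at 4 mM. VEGFA rose in 5637 cells by 2.60 (SE 0.295, adjusted p = 0.000181), its slope in UM-UC3 cells was 0.25 (SE 0.295, adjusted p = 0.57), and the difference of 2.35 between them passed (SE 0.417, adjusted p = 0.00468). That difference failed without either 4 mM library, with an adjusted p of up to 0.223, and the VEGFA call over both lines (1.43, SE 0.449, adjusted p = 0.0461) failed in 6 of the 8 fits with 1 library left out, where the adjusted p reached 0.266.

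ADM (chr11:10305073-10307397), the vasodilator peptide adrenomedullin, measured 39.4, 47.0, 41.9 and 49.4 FPKM at 0, 1, 2 and 4 mM in 5637 cells and 7.58, 7.73, 4.48 and 21.97 FPKM in UM-UC3 cells. The UM-UC3 library at 4 mM stood apart from the other UM-UC3 libraries, and the one at 2 mM was the lowest. The slope of ADM was 0.25 (SE 0.581, adjusted p = 0.753) in 5637 cells and 1.38 (SE 0.581, adjusted p = 0.117) in UM-UC3 cells, and neither passed. Single UM-UC3 libraries set these values of ADM. The UM-UC3 slope was -1.29 without the 4 mM library (adjusted p = 0.220). It was 2.19 and passed without the 2 mM library (adjusted p = 0.0023), as did the difference between the lines (-1.93, adjusted p = 0.0196).

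EGLN3, ANKRD37 and CA9 were the members with the lowest levels. EGLN3 (chr14:33924227-34462774), the prolyl hydroxylase most strongly induced by HIF and so part of its feedback loop, measured 1.10, 1.12, 1.48 and 2.03 FPKM at 0, 1, 2 and 4 mM in 5637 cells, higher at each dose than at the one before. In UM-UC3 cells EGLN3 measured 0.141, 0.281, 0.0734 and 0 FPKM. With no filter on low values its slope was 0.57 (adjusted p = 0.0911) in 5637 cells and -0.26 (adjusted p = 0.478) in UM-UC3 cells. ANKRD37 (chr4:185396021-185400628), an ankyrin repeat protein, measured 0.653, 0.537, 1.11 and 1.82 FPKM in 5637 cells and 0.719, 1.77, 1.40 and 1.11 FPKM in UM-UC3 cells. ANKRD37 rose in 5637 cells by 0.87 (SE 0.319, adjusted p = 0.0491), with its highest level at 4 mM there and at 1 mM in UM-UC3 cells, where the slope was 0.13 (adjusted p = 0.824). The 5637 call failed once the libraries were rescaled (adjusted p = 0.051) and held in 3 of the 8 fits with 1 library left out. CA9 (chr9:35673918-35681159), the membrane carbonic anhydrase that exports acid in hypoxic tumours, was listed at 0 in 7 of the 8 libraries and at 0.117 FPKM in UM-UC3 cells in DMSO. Its induction or loss could not be read at that level.

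The lines differed in the members before any treatment. In DMSO the level in 5637 cells was 3.83 times that in UM-UC3 cells for HIF1A, 3.17 times for JMJD6 and 5.20 times for ADM, and 0.284 times for KDM3A, 0.269 times for NDRG1, 0.334 times for VEGFA and 0.263 times for BNIP3. Of the 9 targets 6 were lower in 5637 cells, CA9 and ANKRD37 (0.908 times) being the other two, and 3 were higher, EGLN3 (7.82 times) among them, with 1 library on each side and no test. CA9 (0 against 0.117 FPKM) and EGLN3 (1.10 against 0.141 FPKM) lay under the filter on low values, so their place in this count is uncertain. Of the 8 slopes, 1 was higher in 5637 cells (VEGFA) and 1 lower (HIF1A) by the test of the difference, where 15.3% of all tested genes had a higher and 10.4% a lower slope in 5637 cells. The other 6 differences, between -1.12 for ADM and 1.07 for NDRG1, did not pass, with adjusted p-values of 0.191 to 0.442. HIF1A kept its difference in 3 and VEGFA in 6 of the 8 fits with 1 library left out.

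The widest steps lay mostly between 2 and 4 mM. Among the 8 tested members the step from 2 to 4 mM was the largest of the 3 steps on the log2(FPKM + 1) scale in 5 genes in 5637 cells (HIF1A, KDM3A, NDRG1, JMJD6 and BNIP3) and in 5 genes in UM-UC3 cells (HIF1A, NDRG1, JMJD6, ADM and BNIP3). This step also spans the widest interval of dose. This step of NDRG1 was the widest of all in 5637 cells, at 2.21, and measured 1.29 in UM-UC3 cells, whereas JMJD6 had steps of 0.96 in 5637 cells and 1.51 in UM-UC3 cells. VEGFA in 5637 cells had steps of 1.26 from 1 to 2 mM and 1.16 from 2 to 4 mM. KDM3A in UM-UC3 cells was the most even, with steps of 0.38, 0.31 and 0.33. Between DMSO and 1 mM the steps of the 7 tested targets lay between -0.84 and 0.69, with 5 of the 7 below 0 in 5637 cells and all 7 above 0 in UM-UC3 cells. With any dose set against DMSO, 0 of 8 members passed in limma in any comparison, and 0 had an unadjusted p under 0.05. In that fit 0 of all 12649 genes passed either, with 947 of them at an unadjusted p under 0.05 over both lines.

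**Figure D3:**
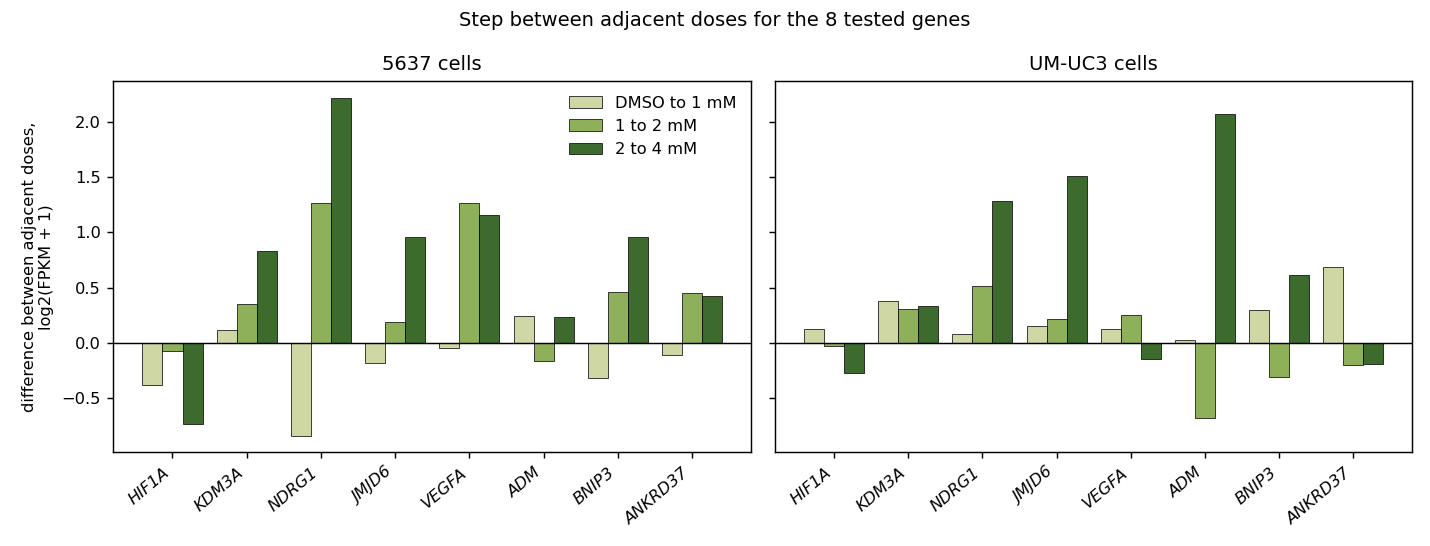
Difference in log2(FPKM + 1) between adjacent doses (bars, light to dark green for DMSO to 1 mM, 1 to 2 mM and 2 to 4 mM) for the 8 tested genes in 5637 cells (left) and UM-UC3 cells (right), 1 library per dose. The dark bars are the tallest for NDRG1, JMJD6 and BNIP3 in both lines, and NDRG1 in 5637 cells steps down by 0.84 at 1 mM before it steps up.

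The other subunits of HIF were measured to set HIF1A beside its partners. EPAS1, the alternative alpha subunit, measured 23.5, 23.2, 35.4 and 52.5 FPKM at 0, 1, 2 and 4 mM in 5637 cells and 44.7, 49.2, 59.1 and 40.3 FPKM in UM-UC3 cells. EPAS1 rose in 5637 cells (log2 fold change 1.23, SE 0.251, adjusted p = 0.00351), its slope in UM-UC3 cells was -0.15 (adjusted p = 0.706), and the slopes differed by 1.38 (SE 0.355, adjusted p = 0.0194). Neither value of EPAS1 passed without both 4 mM libraries, at 1.14 for the 5637 slope (adjusted p = 0.109) and 0.35 for the difference (adjusted p = 0.786). In level per length, HIF1A in 5637 cells was 5.84, 4.56, 2.83 and 1.15 times EPAS1 at 0, 1, 2 and 4 mM, and in UM-UC3 cells it stayed at 0.653 to 0.801 times EPAS1. ARNT, the beta subunit shared by both, measured 12.9 to 14.8 FPKM in 5637 cells and 16.8 to 19.5 FPKM in UM-UC3 cells, with a slope over both lines of -0.02 (SE 0.148, adjusted p = 0.923). ARNT2, at up to 10.4 FPKM in 5637 cells and up to 0.0115 FPKM in UM-UC3 cells, missed the threshold, although its 5637 slope of 2.102 passed without both 4 mM libraries (adjusted p = 0.0256). HIF3A was at most 0.205 FPKM. Of the 4 tested subunits 0 rose over both lines in limma, with 0 at an unadjusted p under 0.05 in that direction, and 1 fell, HIF1A. Of all tested genes 12.1% rose and 12.8% fell.

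**Figure D4:**
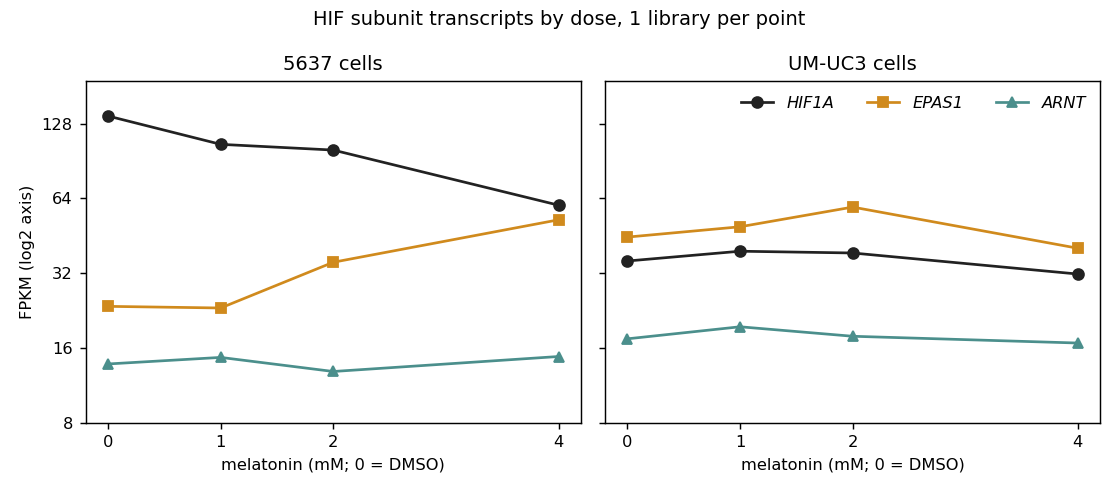
FPKM on a log2 axis of HIF1A (black circles), EPAS1 (orange squares) and ARNT (green triangles) against melatonin dose in mM in 5637 cells (left) and UM-UC3 cells (right), 1 library per point. In 5637 cells HIF1A and EPAS1 approach each other, to 60.1 and 52.5 FPKM at 4 mM, whereas in UM-UC3 cells EPAS1 lies above HIF1A at every dose and ARNT stays lowest in both lines.

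Genes that act on the stability or activity of the alpha subunit, some for it and some against it, were counted next. Of 13 tested genes of oxygen sensing and HIF turnover, 5 rose over both lines and 0 fell in limma (1 at an unadjusted p under 0.05), with a median log2 fold change of 0.16, where 12.1% of all tested genes rose and 12.8% fell. OS9, a lectin of the endoplasmic reticulum also reported to bind HIF1A, rose by 1.05 (SE 0.158, adjusted p = 0.00326), and USP20, a deubiquitinase of HIF1A, by 1.13 (SE 0.264, adjusted p = 0.0153). HIF1AN, the asparaginyl hydroxylase, measured 5.23, 6.30, 7.56 and 9.26 FPKM at 0, 1, 2 and 4 mM in 5637 cells and 7.58, 8.94, 10.9 and 10.1 FPKM in UM-UC3 cells, and it rose over both lines by 0.54 (SE 0.172, adjusted p = 0.0485), a call that held in 1 of the 8 fits with 1 library left out. SIAH2, a ubiquitin ligase of the prolyl hydroxylases, rose by 0.59, and ELOC, a partner of VHL, by 0.54. The ELOC call was lost once the libraries were rescaled, which left 4 genes that rose, and it held in 2 of the 8 fits with 1 library left out. The ELOC value was -0.007 (adjusted p = 0.99) without both 4 mM libraries. EGLN1, the main prolyl hydroxylase, measured 8.99, 10.6, 14.3 and 27.7 FPKM in 5637 cells and 11.3, 13.7, 10.6 and 8.76 FPKM in UM-UC3 cells. It rose in 5637 cells by 1.56 (SE 0.214, adjusted p = 0.000458), and its slope there was higher than in UM-UC3 cells by 2.01 (SE 0.303, adjusted p = 0.00246). VHL, measured at 85.7 to 137 FPKM in 5637 cells and 19.7 to 25.3 FPKM in UM-UC3 cells, rose in 5637 cells by 0.66 (SE 0.165, adjusted p = 0.00939), and its difference between the lines was 1.01 (adjusted p = 0.0128). In 5637 cells 5 of the 13 rose and 3 fell, where 23.0% of all tested genes rose and 20.4% fell. The 3 that fell, named after their values were seen, were the ubiquitin ligase subunits CUL2 (-0.65, adjusted p = 0.0209) and RBX1 (-0.70, adjusted p = 0.0294) and the HIF1A-binding scaffold RACK1 (-0.70, adjusted p = 0.0187). EGLN2, a further prolyl hydroxylase, had a slope of -0.26 in 5637 cells (adjusted p = 0.445) and fell by 1.04 on the log2 scale in the UM-UC3 line (adjusted p = 0.0158). Without both 4 mM libraries 0 of the 13 passed over both lines in limma, with 3 higher and 1 lower at an unadjusted p under 0.05. Of all tested genes 2.77% passed in that fit. In 5637 cells only OS9 and USP20 then rose and 0 fell in limma (0 at an unadjusted p under 0.05), where 9.1% of all tested genes passed. EGLN1 (1.23, adjusted p = 0.103) and VHL (0.76, adjusted p = 0.161) did not pass there. In UM-UC3 cells 0 of the 13 then passed in limma (2 higher at an unadjusted p under 0.05), with EGLN2 at -1.22 (adjusted p = 0.219). Of all tested genes 4.15% passed there.

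The members were set beside 44 tested HIF targets outside glycolysis that are not among them. Over both lines 8 of the 44 rose and 3 fell, with a median log2 fold change of 0.37. In 5637 cells 20 rose and 5 fell (median 0.73). The UM-UC3 line had 9 that rose and 5 that fell (median -0.04). Of all tested genes 12.1% rose and 12.8% fell over both lines, 23.0% and 20.4% in 5637 cells, and 12.5% and 16.7% in UM-UC3 cells. With both 4 mM libraries left out, 3 of the 44 passed upward and 3 downward in 5637 cells. In UM-UC3 cells 2 passed upward and 1 downward, and the median there was 0.27. Of all tested genes 9.1% passed in that fit in 5637 cells and 4.15% in UM-UC3 cells. HMOX1, the heme oxygenase, which NRF2 also induces, measured 1.02, 0.817, 3.04 and 10.5 FPKM at 0, 1, 2 and 4 mM in 5637 cells and 31.2, 48.1, 65.8 and 104 FPKM in UM-UC3 cells, and rose by 2.21 (SE 0.301, adjusted p = 0.00244). CCNG2, an atypical cyclin of arrested cells, rose by 1.33 (SE 0.222, adjusted p = 0.00461), and PPP1R3C, which directs phosphatase to glycogen, by 1.19 (SE 0.216, adjusted p = 0.00624). PPP1R3C was low in 5637 cells, at 0.116, 0.120, 0.373 and 0.988 FPKM, and measured 8.45, 14.2, 19.2 and 26.6 FPKM in UM-UC3 cells. AK4, a mitochondrial adenylate kinase, measured 21.0, 15.8, 9.60 and 1.69 FPKM in 5637 cells and 14.2, 14.3, 11.1 and 5.52 FPKM in UM-UC3 cells, and fell by 2.20 on the log2 scale (SE 0.366, adjusted p = 0.00457). ZNF395, a zinc finger factor, fell by 1.67 on the same scale (SE 0.276, adjusted p = 0.00445). Of 20 glycolytic HIF targets 0 rose in limma over both lines (3 at an unadjusted p under 0.05), 8 fell and 12 did not pass, with a median of -0.53. Among them GPI fell by 1.46, PGAM1 by 1.42 and ENO1 by 1.19 on the log2 scale. In 5637 cells 1 of the 20 rose and 10 fell, and in UM-UC3 cells 2 rose and 8 fell. ENO2, an enolase, rose in 5637 cells by 1.78 (adjusted p = 0.0253). In UM-UC3 cells the glucose transporter SLC2A3 rose by 1.51 (adjusted p = 0.00281) and the hexokinase HK2 by 1.90 (adjusted p = 0.0346). These 3 were named after their values were seen. HSP90AB1, a chaperone that holds HIF1A before hydroxylation, was the only 1 of 7 tested coactivators, chaperones and inhibitors of HIF that passed over both lines. HSP90AB1 fell by 0.95 on the log2 scale (SE 0.211, adjusted p = 0.0127), but not in UM-UC3 cells alone (-0.60, adjusted p = 0.0721). The related HSP90AA1, named after its values were seen, rose in UM-UC3 cells by 1.98 (adjusted p = 0.0209), at 216, 186, 173 and 802 FPKM. In 5637 cells its slope was 0.02 (adjusted p = 0.975). Without both 4 mM libraries 1 of the 44 other targets rose and 1 fell over both lines, and 0 of the 20 glycolytic targets passed in limma, with 1 higher and 9 lower at an unadjusted p under 0.05. Of all tested genes 2.77% passed in that fit over both lines.

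**Figure D5:**
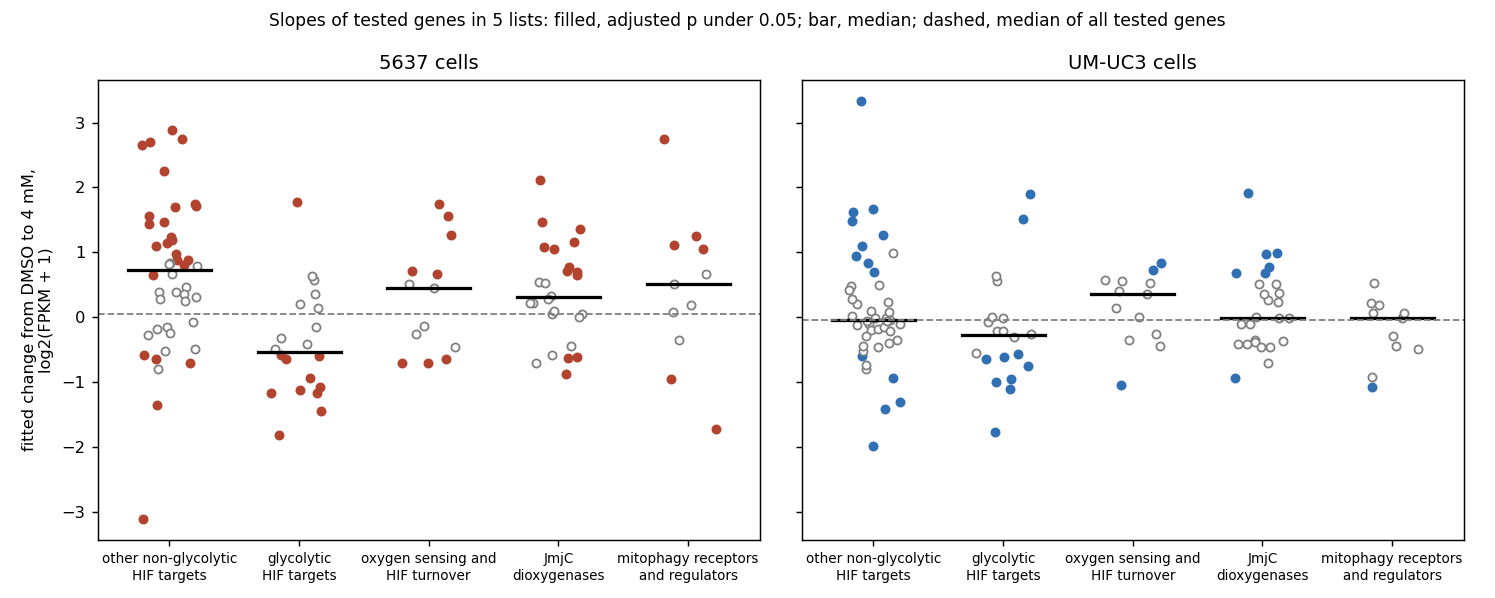
Fitted log2 change from DMSO to 4 mM (y axis) of the tested genes of 5 lists in 5637 cells (left) and UM-UC3 cells (right), 1 gene per point, filled where the adjusted p is under 0.05, with black bars at list medians and a dashed line at the median of all tested genes. In 5637 cells the other non-glycolytic targets have a median of 0.73 and the glycolytic targets one of -0.53, and in UM-UC3 cells these medians are -0.04 and -0.28.

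Of 5 tested VEGF ligands and receptors VEGFA rose over both lines and VEGFB and VEGFC fell, where 12.1% of all tested genes rose and 12.8% fell. VEGFB, the ligand that binds FLT1, measured 8.89, 6.11, 4.08 and 1.20 FPKM at 0, 1, 2 and 4 mM in 5637 cells and 20.8, 19.0, 9.86 and 3.03 FPKM in UM-UC3 cells, and fell over both lines by 2.38 on the log2 scale (SE 0.202, adjusted p = 0.000663). VEGFC, the lymphatic ligand, fell by 1.21 on the same scale (SE 0.263, adjusted p = 0.0118). It measured 6.65, 7.79, 7.32 and 2.91 FPKM in 5637 cells and 8.54, 8.62, 4.17 and 3.07 FPKM in UM-UC3 cells. The VEGFC call held in all 8 fits with 1 library left out. Without both 4 mM libraries VEGFB still passed over both lines (-1.97, adjusted p = 0.0397), but VEGFC did not (-0.765, adjusted p = 0.391). The 5637 slope of VEGFC was then 0.24 (adjusted p = 0.807). The ligands PGF and VEGFD lay under the filter, and PGF measured 0.474, 0.501, 0.527 and 2.84 FPKM in 5637 cells, highest at 4 mM as VEGFA was, and at most 0.138 FPKM in UM-UC3 cells. VEGFA was 34.9 times VEGFB in level per length in 5637 cells at 4 mM, against 0.816 times in DMSO, and 8.55 times in UM-UC3 cells at 4 mM, against 1.05 times in DMSO. The receptors FLT1, KDR and FLT4 were at most 0.520 FPKM in every library. NRP1, a co-receptor named after its values were seen, fell in 5637 cells by 1.06 on the log2 scale (adjusted p = 0.00899), had a slope of 0.72 in UM-UC3 cells (adjusted p = 0.0634), and its slopes differed by -1.78 (adjusted p = 0.00859). Neither call of NRP1 held without both 4 mM libraries, at -0.04 in 5637 cells (adjusted p = 0.962) and -1.20 for the difference (adjusted p = 0.257). Of the adrenomedullin system only ADM itself was tested, since its receptor CALCRL reached 0.116 FPKM. CA12, a membrane carbonic anhydrase and the only one tested, also named after its values were seen, measured 24.6, 23.4, 21.5 and 8.83 FPKM in UM-UC3 cells and at most 1.25 FPKM in 5637 cells, and fell by 1.42 on the log2 scale in the UM-UC3 line (adjusted p = 0.0171), a value of -0.37 (adjusted p = 0.632) without both 4 mM libraries. Of 3 tested cytosolic and mitochondrial carbonic anhydrases 0 passed over both lines in limma, and 1 fell at an unadjusted p under 0.05. Of all tested genes 24.9% passed over both lines. In 5637 cells CA2, named after its values were seen, fell by 2.84 on the log2 scale (adjusted p = 6.34e-05), at 28.4, 13.3, 10.4 and 2.79 FPKM. It still passed without both 4 mM libraries (-2.73, adjusted p = 0.0192). CA13, named likewise, rose there by 1.14 (adjusted p = 0.00189), but not without both 4 mM libraries (1.03, adjusted p = 0.137). Their slopes in UM-UC3 cells were 0.10 (adjusted p = 0.821) and -0.49 (adjusted p = 0.104).

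The patterns of the members over the 8 libraries were also compared with each other, after the mean of each line was subtracted, as a description in which all pairs share libraries and doses. NDRG1 and BNIP3 were the most alike (Pearson r = 0.947), followed by KDM3A and NDRG1 (r = 0.93). HIF1A ran against VEGFA (r = -0.87), KDM3A (r = -0.829) and BNIP3 (r = -0.826). ADM was the least tied to the rest, with r = 0.073 to VEGFA and -0.062 to ANKRD37, and its highest r was 0.781, to JMJD6. Among 9491 genes with a mean of at least 4 FPKM, the patterns most like that of HIF1A were those of PGAP2 (r = 0.995), AOPEP (0.989), LRIG3 (0.988), ATP13A1 (0.987) and DCTN1 (0.986). The most opposed were those of ETNK1 (r = -0.997), GPATCH11 (-0.992), OFD1 (-0.990), TIAM1 (-0.990) and CHFR (-0.989).

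Some members overlap other genes, and the sources do not state whether counting used strand. HIF1A-AS1, on the strand opposite HIF1A, was listed at 0.380, 0.196, 0.0785 and 0.0016 FPKM at 0, 1, 2 and 4 mM in 5637 cells and at most 0.0004 FPKM in UM-UC3 cells, far under HIF1A in every library, and HIF1A-AS3 was listed at 0. EGLN3 shares 29453 bases with SPTSSA on the same strand, which was more abundant (26.3 to 52.0 FPKM in 5637 cells), so that reads of the EGLN3 model are uncertain. UFSP2, opposite ANKRD37, was at 4.73 to 24.2 FPKM, also above its partner in every library. CA9 lies opposite ARHGEF39 (1.13 to 10.5 FPKM), and JMJD6 touches AC005837.3 on the same strand, which reached 3.92 FPKM in UM-UC3 cells at 4 mM. The 39 pseudogenes named for BNIP3 reached at most 0.218 FPKM each, and the 1 named for HIF1A at most 0.23 FPKM.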

How the data were processed

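The authors deposited, for 60612 genes, normalized levels whose unit the table does not name. They were read as FPKM, because they hold fractions, their library totals are unequal, and the submitters' processing notes list StringTie, which writes FPKM, beside HISAT2, Trimmomatic and edgeR. The build is GRCh38, and no source used here gives the annotation release. A second sheet with 22465 of the genes was not used. Depth is unknown, as low values show no steps of whole reads, so no counting interval is given.

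Values were tested as log2(FPKM + 1) in limma 3.58.1 (R 4.3.3), for 12649 genes whose mean reached 1 FPKM (eBayes with trend and robust, two-sided), over dose in mM divided by 4 with a term for the line (5 residual degrees of freedom), and with a slope for each line (4 residual degrees of freedom). The line is the block. P-values measure the scatter of single libraries around straight lines. A fold change on this scale understates the change of low genes. The script was tested on simulated data.

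The members, tests and 16 gene lists were chosen with earlier results of these data known. Named in the text are all 10 members, up to 5 members of each list that pass over both lines by smallest p, the HIF subunits, the EGLN genes, HIF1AN and VHL, the 5 genes most like and most unlike HIF1A, overlapping genes and pseudogenes. NRP1, CA12, NDRG2, CA2, CA13, CUL2, RBX1, RACK1, ENO2, SLC2A3, HK2, PGF, HSP90AA1, TIE1 and CD68 were named after their values were seen. Alternatives were 12 other settings and each library left out in turn. Tables and plots were made with pandas 2.3.3 and matplotlib 3.10.9 in Python 3.11.15.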

Additional observations from a re-analysis of the deposited data

Results flagged for a closer look

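By limma's test of the difference, 2 members did not share 1 slope between the lines, VEGFA with a higher slope in 5637 than in UM-UC3 cells by 2.35 and HIF1A with a lower one by -0.93 on the log2 scale. Of all tested genes 25.7% passed this test in either direction, so that 2 of 8 members is near the share of all genes. Of the HIF subunits and oxygen sensing genes the same test passed for EPAS1 (1.38), EGLN1 (2.01), VHL (1.01) and USP20 (1.22), higher in 5637 cells. It passed in the other direction for RBX1, named after its values were seen (-1.26, adjusted p = 0.0183). It also passed for CA12 (2.25), CA13 (1.62) and the autophagy receptor TAX1BP1 (0.83), higher in 5637 cells, and for AK4 (-1.80), NRP1 (-1.78), NDRG2 (-1.91) and CA2 (-2.94), lower in 5637 cells. Leaving RBX1 aside, 0 of the other 13 differences passed in limma without both 4 mM libraries, with 8 at an unadjusted p under 0.05. Of all tested genes 0.917% passed in that fit, and the difference of CA12 turned sign, to -0.23. With 1 library per dose and line, and each line in its own medium, the line and the medium cannot be told apart in these differences.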

How the results depend on the processing

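Of 588 values of single members under the alternatives, 441 kept their direction and side of the threshold, 114 lost and 9 gained significance, and 24 changed sign; the cause was not tested. The 6 members called over both lines became 1 with no filter, 3 with log dose, 3 with dose rank, 0 with any dose against DMSO (0 in limma at an unadjusted p under 0.05, as in the other comparisons), 0 without both 4 mM libraries (2 unadjusted), 0 with no line term (3 unadjusted), 1 with 4 mM against DMSO alone, and 3 to 7 with 1 library left out. The 7 called in 5637 cells became 4 with no filter, 3 with log dose, 0 with any dose, 0 without both 4 mM libraries (3 unadjusted), and 0 (without the 5637 library at 4 mM, 3 unadjusted) to 7 with 1 library left out. The 2 called in UM-UC3 cells became 1 with no filter, 1 with log dose, 0 with any dose, 0 without both 4 mM libraries (2 unadjusted), and 0 (4 mM of that line left out, 2 unadjusted) to 3 with 1 left out. The 2 differences between the lines became 0 with no filter (3 unadjusted), 0 with log dose (2 unadjusted), 1 with dose rank, 0 with any dose, 0 without both 4 mM libraries (1 unadjusted), and 0 (without either 4 mM library, 2 and 3 unadjusted) to 3 with 1 left out. Of all tested genes, 24.9% passed over both lines, against 3.31% with no filter, 17.2% with log dose, 20.7% with dose rank, 2.77% without both 4 mM libraries, 0.0237% with no line term and 0.538% with 4 mM against DMSO alone. Rescaling the libraries moved the median of all genes by under 0.1 (log2).

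Signs turned in values that had not passed. With any dose against DMSO, HIF1A in treated UM-UC3 libraries differed from DMSO by 0.021. The differences between the lines were then -0.063 for KDM3A, -0.11 for NDRG1 and -0.15 for ANKRD37. Without both 4 mM libraries, HIF1A in UM-UC3 cells was 0.21, ADM was -0.56 over both lines and -1.29 in UM-UC3 cells, BNIP3 in UM-UC3 cells was -0.006, and the differences were -0.43 for KDM3A, -0.34 for NDRG1, 1.47 for ADM and -0.27 for ANKRD37. With 1 library left out, HIF1A in UM-UC3 cells ran from -0.42 to 0.21, ADM over both lines from -0.035 to 1.16 and in UM-UC3 cells from -1.29 to 2.19, BNIP3 in UM-UC3 cells from -0.006 to 0.62 and ANKRD37 there from -0.50 to 0.97. The differences then ran from -0.052 to 0.59 for KDM3A, -1.13 to 2.63 for NDRG1, -1.89 to 0.33 for JMJD6, -1.93 to 1.55 for ADM, -0.25 to 1.37 for BNIP3 and -0.10 to 1.37 for ANKRD37. The labels carry no replicate numbers to pair, and the fit with no line term is the one without the block. Without counts the depth behind low values such as those of CA9, EGLN3 and ANKRD37 is unknown.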

Other observations

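The dioxygenase family of KDM3A and JMJD6 was also described. Of 26 tested JmjC dioxygenases 6 rose over both lines (KDM3A, JMJD1C, KDM5A, KDM7A, JMJD6 and HIF1AN) and 1 fell (KDM3B), with a median log2 fold change of 0.27, where 12.1% of all tested genes rose and 12.8% fell. KDM5A, a demethylase of lysine 4 of histone H3, measured 7.16, 8.19, 8.84 and 12.3 FPKM at 0, 1, 2 and 4 mM in 5637 cells and 9.34, 11.2, 12.9 and 19.4 FPKM in UM-UC3 cells, and rose by 0.84 (SE 0.147, adjusted p = 0.00532). KDM3B, the closest relative of KDM3A, measured 18.3, 19.0, 17.1 and 11.9 FPKM in 5637 cells and 27.3, 29.2, 23.7 and 14.6 FPKM in UM-UC3 cells, and fell by 0.78 on the log2 scale (SE 0.174, adjusted p = 0.013). KDM3A at 4 mM was thus at 23.7 FPKM in 5637 cells and KDM3B at 11.9 FPKM, whereas in DMSO they were at 9.01 and 18.3 FPKM. In UM-UC3 cells KDM3A lay above KDM3B at every dose, in DMSO at 31.7 against 27.3 FPKM. Once the libraries were rescaled 6 rose and 3 fell, and without both 4 mM libraries 0 of the 26 passed over both lines in limma, with 4 higher at an unadjusted p under 0.05. Without both 4 mM libraries 2.77% of all tested genes passed.

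Within the NDRG family NDRG1 rose and NDRG3 fell over both lines, the second by 0.94 on the log2 scale (SE 0.208, adjusted p = 0.0127). NDRG3 measured 18.8, 17.5, 17.5 and 7.81 FPKM at 0, 1, 2 and 4 mM in 5637 cells and 36.8, 39.8, 30.03 and 23.7 FPKM in UM-UC3 cells. NDRG2 fell in 5637 cells by 1.91 on the same scale (adjusted p = 0.00105) and was at most 0.0086 FPKM in UM-UC3 cells. Neither call held without both 4 mM libraries, at -0.38 for NDRG3 over both lines (adjusted p = 0.439) and -0.80 for NDRG2 in 5637 cells (adjusted p = 0.322). Of 11 tested mitophagy genes, BNIP3 and the autophagy receptor TAX1BP1 rose over both lines, the second by 0.64 (adjusted p = 0.0485). The TAX1BP1 call held in 1 of the 8 fits with 1 library left out, and its slope in UM-UC3 cells was 0.22 (adjusted p = 0.42). The receptor FKBP8 fell by 1.40 (SE 0.217, adjusted p = 0.00364) and the inner membrane receptor PHB2 by 0.72 (adjusted p = 0.0133) on the log2 scale. The list median was 0.12, and these 2 that rose and 2 that fell stand beside 12.1% and 12.8% of all tested genes, while without both 4 mM libraries 0 of the 11 passed over both lines in limma, with 4 higher and 2 lower at an unadjusted p under 0.05. In that last fit 2.77% of all tested genes passed. The lines differed in this list. In 5637 cells 4 of the 11 rose and 2 fell, where 23.0% of all tested genes rose and 20.4% fell. Without both 4 mM libraries 6 rose there and 0 fell in limma (1 at an unadjusted p under 0.05). The list median was then 1.57, and 9.1% of all tested genes passed. In UM-UC3 cells 0 rose and 1 fell, with or without the 4 mM libraries, and 0 were higher at an unadjusted p under 0.05.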
